A study of Mus musculus with 9 samples.

Results

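An intron of the mouse gene Sfmbt2 holds a tandem array of microRNA (miRNA) hairpins of the families miR-466, miR-467, miR-669 and miR-297, and the reads from this array are described here across 9 small RNA libraries. Its members were the read 5′ ends on the plus strand of chromosome 2 between positions 10290000 and 10520000 of mm9, with reads of 18 to 25 nt, whose expected counts summed to at least 20 over the 9 libraries. Of 1032 different 5′ ends in this window, 271 reached that minimum, out of 29898 5′ ends in the whole genome that did. Since the members were chosen by their summed count, that sum is given only as a description. The study prepared libraries of MIN6, an insulin-secreting mouse line of beta cell origin that was derived from a pancreatic tumor (insulinoma), with different kits: 3 with Illumina TruSeq (TS-GAIIx) and 3 with Illumina v1.5 (v1.5-GAIIx), both sequenced on the GAIIx at the same facility on the same date, and 1 with Bioo Scientific NEXTflex V2 (NF-HiSeq, labelled replicate 6). NF-HiSeq also differed from the others in its RNA, sequencing platform, facility and date, so that these and the kit cannot be told apart. The other 2 libraries, TS-HiSeq-ML and NF-HiSeq-ML, were made with TruSeq and NEXTflex V2 from the same liver RNA of a single female C57BL/6J mouse that had been injected with saline through the tail vein and fasted overnight. MIN6 is a single tumor line and the liver a mixture of cell types, and the 3 libraries of a kit are biological replicates by the study's description. The labels do not say whether they came from separate cultures, and if they did not, the p-values measure technical spread only.

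Sfmbt2 is an imprinted gene expressed from the paternal allele, and its intronic miRNA array, which is particular to rodents, is best known from the placenta and from embryonic stem cells. Each hairpin is cut by Drosha and Dicer into a short duplex whose strands are called 5p and 3p after the arm they come from. Either strand can be loaded into an Argonaute protein, where bases 2 to 8, the seed, select the mRNAs that are repressed. In library preparation an adapter is ligated to each end of the small RNA. The v1.5 and TruSeq adapters have fixed ends, and those of NEXTflex V2 end in random bases.

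The GRCm38 annotation (GENCODE M21) places 119 miRNA hairpins within Sfmbt2 on its strand, from position 10465287 to 10518279 of chromosome 2 inside a gene that runs from 10370510 to 10595253. None overlaps an exon of Sfmbt2, and 71 have a Mir symbol. The array is a repeat: neighbouring hairpins of Mir467a-1 to Mir467a-10 lie a median of 2462 nt apart (range 2413 to 4880 nt). The reads are given in mm9, a genome that was not used here, so the hairpins were laid over the reads as an unbroken block by the mismatches between reads and genome. In the best position 20 of 4611 kinds of mismatch were in conflict with the hairpins (0.434%), against 13.8% in the next best. In that position all members but 1 were assigned to an arm of 71 different hairpins, with up to 10 nt allowed before the annotated hairpin. Of these, miR-466g-5p alone started before its hairpin, 7 nt upstream of the first base. By family, 98 members were miR-466, 85 miR-669, 51 miR-467 and 16 miR-297, and 20 lay on 5 hairpins that have only a Gm symbol. By arm, 153 were 5p and 117 were 3p. The remaining member, at chromosome 2 position 10402864 of mm9, lay on no hairpin and had all of its 108 counts in NF-HiSeq.

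Most of the members are copies of each other. They have 66 different starts, counted by the first 20 bases, and 30 of these starts occur on several hairpins and account for 234 members. The start of miR-669a-5p alone is present 16 times. A read that fits several copies equally well was divided by the authors among its alignments, so copies hold the same reads in equal parts and are not replicates of each other. Their values are summed below wherever the text speaks of a start. The members with little division are those on hairpins without close copies, among them miR-669c-5p (0.00593% of its counts on divided alignments), miR-467e-5p (0.0992%), miR-467d-5p (0.138%) and miR-467c-5p (0.672%).

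The deposited counts of a library summed to between 6923460 and 25638900, and the expression unit used here is the count per 1000000 mapped reads (RPMM). A count of 3 corresponds to 0.117 RPMM in NF-HiSeq, the deepest library, and to 0.452 RPMM in TS-GAIIx replicate 1, the shallowest. The beta cell marker miR-375-3p had 64946 RPMM in NF-HiSeq, a mean of 174583 in TS-GAIIx and 80020 in v1.5-GAIIx, and 40.0 and 26.7 in the liver libraries TS-HiSeq-ML and NF-HiSeq-ML. The hepatocyte marker miR-122-5p had 17201 and 531351 RPMM in these liver libraries. It was at 127 RPMM in NF-HiSeq, 0.390 in TS-GAIIx and 2.01 in v1.5-GAIIx, and what part this has in the values of NF-HiSeq was not tested. The marker miR-192-5p had 82112 and 6009 RPMM in liver and 1342, 556 and 249 RPMM in TS-GAIIx, v1.5-GAIIx and NF-HiSeq. A further beta cell marker, miR-7a-5p from Mir7a-1, had 461 RPMM in TS-GAIIx, 2397 in v1.5-GAIIx and 128979 in NF-HiSeq, and 3.21 and 340 RPMM in the liver libraries. Within TruSeq and within NEXTflex V2 all these markers were higher in the labelled cell type, and their levels also differed between kits. There was no liver library of v1.5, and within TruSeq the MIN6 and liver libraries also differed in sequencing platform.

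The cluster was detected in every library, at a level that differed between the kits. In TS-GAIIx the 271 members summed to 364, 385 and 383 RPMM. In v1.5-GAIIx they summed to 1001, 1032 and 993 RPMM, so that no v1.5-GAIIx library overlapped the TS-GAIIx range. In NF-HiSeq the sum was 4650 RPMM, or 0.465% of the mapped reads. In liver it was 8.44 RPMM with TruSeq and 68.3 RPMM with NEXTflex V2. In the same kit, liver was therefore far below MIN6, and fewer cells of a type cannot be told apart from less RNA per cell in a tissue.

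**Figure D1:**
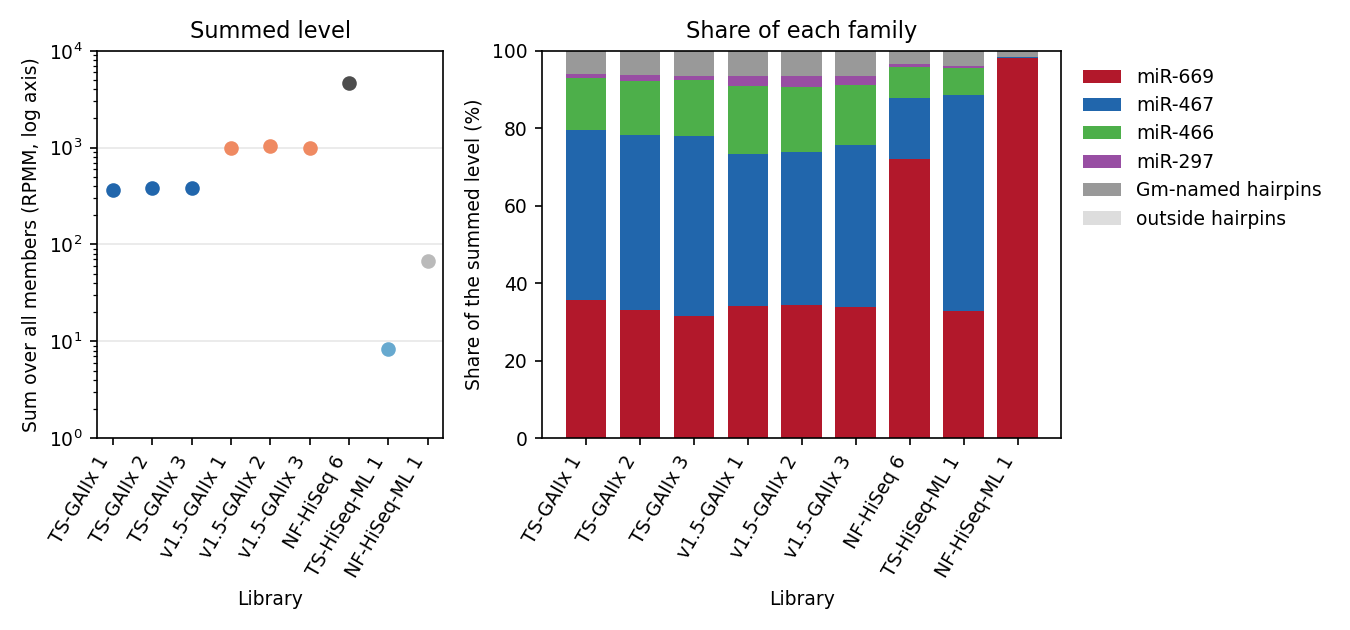
Left, the sum over the 271 members in each of the 9 libraries in RPMM on a log axis, 1 point per library; right, the share of that sum in each family as stacked bars in percent. The sums lie near 377 RPMM in TS-GAIIx, 1009 in v1.5-GAIIx and 4650 in NF-HiSeq, and miR-669 makes up 72.1% of the last and 98.1% of NF-HiSeq-ML.

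The kits differed in which family made up the sum. miR-467 was the largest family in the TS-GAIIx libraries, with 43.9%, 45.2% and 46.5% of the sum, and miR-669 came next with 35.6%, 33.0% and 31.5%. The v1.5-GAIIx libraries had nearly the same composition, with 39.2%, 39.5% and 41.9% for miR-467 and 34.1%, 34.4% and 33.8% for miR-669. In NF-HiSeq the order was turned round, since miR-669 had 72.1% and miR-467 15.9%. Between 6.94% and 17.5% of the sum came from miR-466 in all libraries but NF-HiSeq-ML, in which no miR-466 read was counted. miR-297 stayed under 3% everywhere. In level, miR-669 went from a mean of 126 ± 4.62 RPMM (SD, n = 3) in TS-GAIIx to 344 ± 9.55 in v1.5-GAIIx and was at 3350 in NF-HiSeq. miR-467 was at 171 ± 9.63, 405 ± 12.3 and 737 RPMM in the same order, and miR-466 at 52.8 ± 3.24, 168 ± 12.9 and 372 RPMM.

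The array's repeats show in the levels along it. The copies of miR-467a-5p and of miR-669a-5p, 1 pair per repeat, formed a row of nearly equal values in the middle of the cluster, which follows from dividing shared reads. At the flanks lay the hairpins with a sequence of their own, and these held the highest single values: miR-467d-5p in TS-GAIIx replicates 1 and 3 (5.95% and 5.37% of the sum), the start 1 nt upstream of it in TS-GAIIx replicate 2 (4.69%), miR-467c-5p in the 3 v1.5-GAIIx libraries (3.41% to 4.49%) and miR-669c-5p in NF-HiSeq (19.8%).

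**Figure D2:**
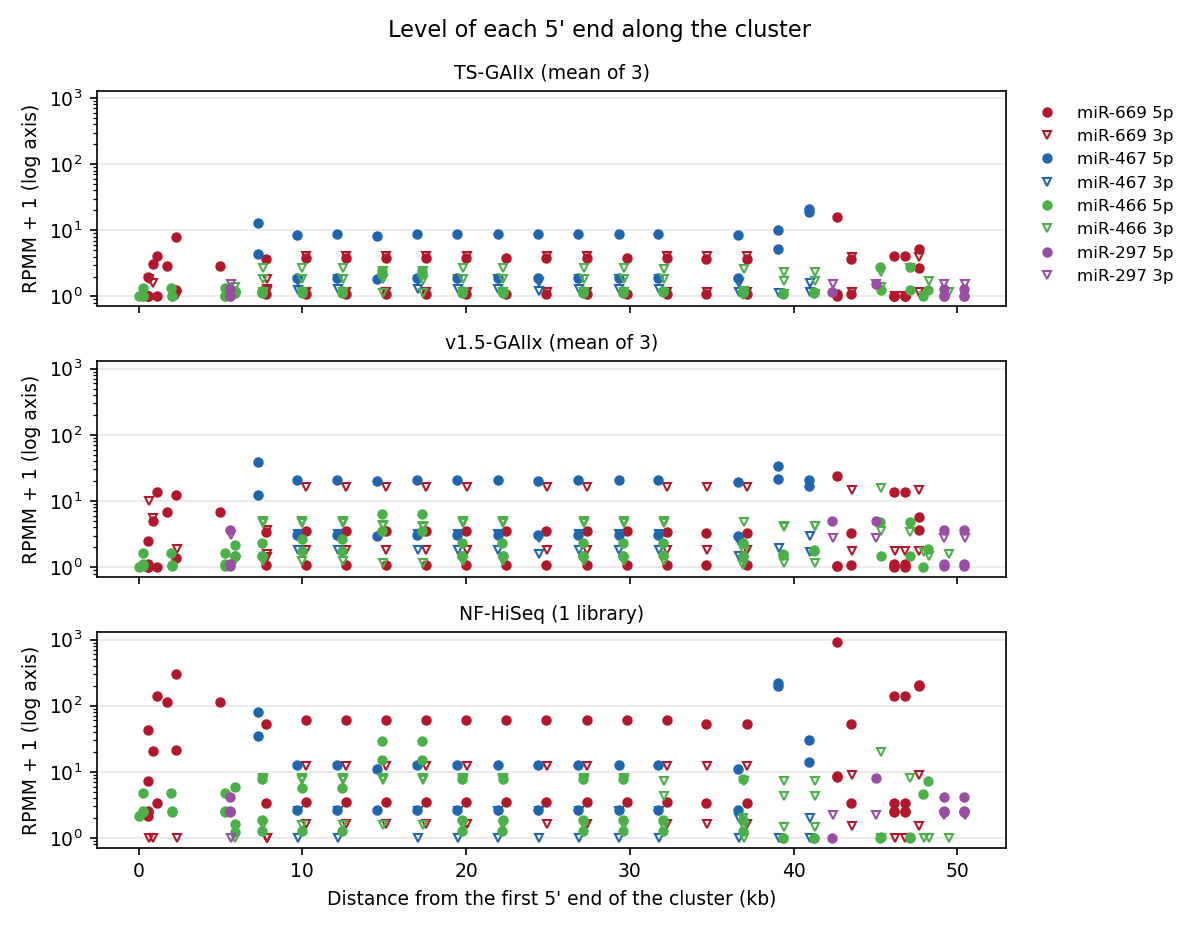
Level of each member on a hairpin of the families miR-669, miR-467, miR-466 or miR-297, as RPMM + 1 on a log axis, against its distance in kb from the first of the 5′ ends shown, for the means of 3 TS-GAIIx and 3 v1.5-GAIIx libraries and for NF-HiSeq. Filled circles are 5p and open triangles 3p. The rows of equal values are copies that share divided reads, and the highest point is miR-669c-5p in NF-HiSeq, at 920 RPMM.

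The share of the members' counts that stood on divided alignments was 61.2%, 69.2% and 70.9% in TS-GAIIx, 74.7%, 60.4% and 55.4% in v1.5-GAIIx and 43.9% in NF-HiSeq. It was 49.0% in TS-HiSeq-ML and 39.1% in NF-HiSeq-ML. The v1.5-GAIIx libraries spanned the TS-GAIIx values, whereas NF-HiSeq lay below all 6. A divided sum can also come out whole, so these shares are lower limits.

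The comparison of v1.5-GAIIx with TS-GAIIx asks whether the fixed adapters of these kits capture the cluster alike, and it is the only comparison with replicates. Among the members on 5p and 3p arms of miR-466, miR-467 and miR-297 and on 3p arms of miR-669, nearly all that were tested rose in v1.5-GAIIx when mapped reads were the library size, and fewer did under other scalings (below). Members on 5p arms of miR-669 were the exception, as most did not pass the test. Most of these are copies of the miR-669a-5p start, which share divided reads, so the exception rests largely on that start. Over the whole cluster, 205 of the 271 members had at least 20 counts in the 6 libraries and were tested. Of these 173 rose in v1.5-GAIIx (84.4%), beside 45.7% of the 16843 5′ ends tested in the genome (edgeR quasi-likelihood test, adjusted p under 0.05; 66.6% were called in either direction), and 0 were higher in TS-GAIIx, beside 20.9% of the genome. The other 66 members, all with counts in NF-HiSeq, were too low in these 6 libraries to be tested. In 178 of the 205 the 3 v1.5-GAIIx values lay above all 3 TS-GAIIx values, beside 51.7% of the genome, and in 13 they lay below, beside 24.0%. The median log2 fold change of the members tested was 1.57, beside 0.95 for all 5′ ends tested and 0.72 for the 345 tested 5′ ends of the imprinted Dlk1-Dio3 miRNA cluster on chromosome 12. Counted by start rather than by copy, every tested member of 39 starts rose, and for 15 starts none passed the test. Members could reach the minimum through the kit in which they were high, as could all other 5′ ends tested, so these counts describe the cluster beside the genome and no more.

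The number of calls depended on the scaling and the test, and so did the calls on copies of the miR-669a-5p start. With TMM factors in place of mapped reads the median of all 5′ ends moved from 0.95 to 0.42, 124 members rose (60.5%, beside 35.98% of the genome) and 17 were higher in TS-GAIIx (8.29%, beside 27.8%), at an adjusted p under 0.05. These 17 were 12 copies of miR-669a-5p, 2 members of miR-669p-5p, 1 of Gm26092-5p and both starts of miR-467d-5p. The DESeq2 test with its own size factors called 74 members higher in v1.5-GAIIx and 2, the starts of miR-467d-5p, higher in TS-GAIIx. The 74 were 36.1% of the members tested, beside 28.1% of the genome, and the 2 were 0.976%, beside 21.1%. In either direction 37.1% of the members were called, beside 49.2% of the genome. With whole-number counts only, which leaves out most divided reads, 13 of 62 tested members rose (20.97%), beside 24.5% of the genome, so that the share of the members was no longer above that of the genome.

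**Figure D3:**
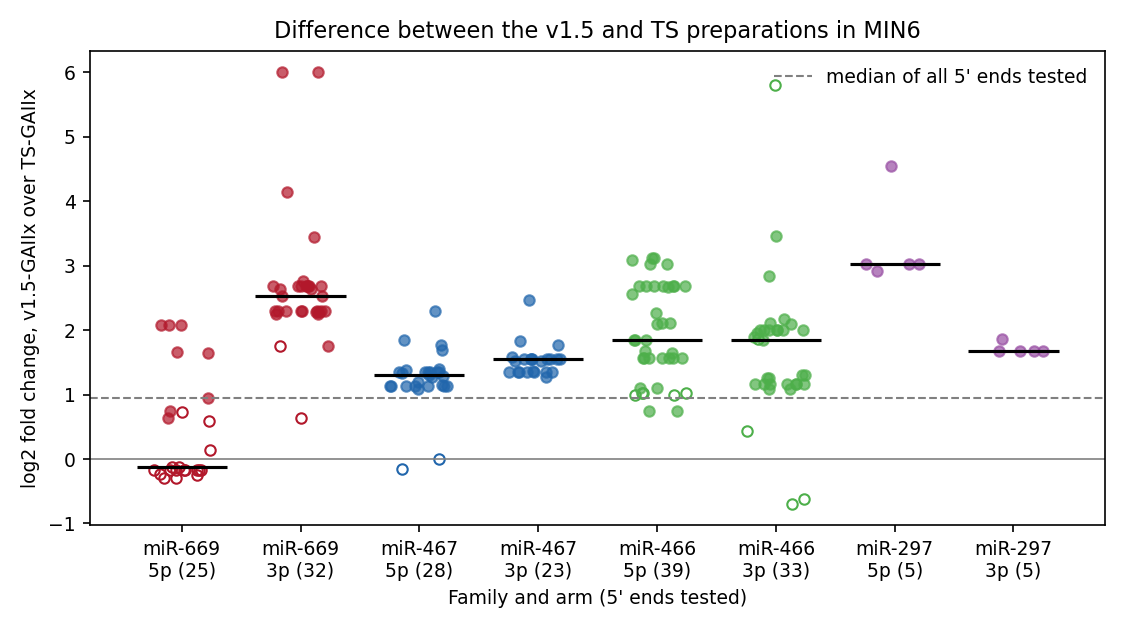
Fitted log2 fold change between the kits (positive, higher in v1.5-GAIIx) of each tested member, by family and arm, with mapped reads as library size. Filled points passed the adjusted p of 0.05, open points did not, black lines are medians and the dashed line is the median of all 5′ ends tested (0.95). The 25 points of miR-669 5p have a median of -0.12, and the 32 points of miR-669 3p a median of 2.53. Most of the 25 are copies of the miR-669a-5p start. Most of the 32 are copies of the miR-669a-3p start or the start 1 nt downstream. Copies share divided reads.

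Of the 25 tested members on miR-669 5p arms, 8 rose in v1.5-GAIIx and 17 did not pass the test, with a median log2 fold change of -0.12. Most of the 17 are copies of the miR-669a-5p start, which set this median. Counted by start, miR-669b-5p (with miR-669m-5p), miR-669c-5p, miR-669d-5p, miR-669e-5p and miR-669l-5p rose. The starts of miR-669a-5p and miR-669f-5p and both of miR-669o-5p did not pass. Only that of miR-669a-5p had negative fold changes. The 16 copies of miR-669a-5p summed to 40.6, 41.8 and 43.7 RPMM in TS-GAIIx and to 36.9, 38.7 and 34.7 RPMM with v1.5. The 2 ranges did not overlap and lay close together, and the fold changes of the 15 copies tested ran from -0.29 to -0.12 with none past the threshold. miR-669c-5p, at position 10430946 of chromosome 2 (mm9, as for all members below), had 13.2, 17.2 and 14.0 RPMM in TS-GAIIx and 21.5, 23.2 and 24.1 RPMM with v1.5. It rose by a log2 fold change of 0.63 ± 0.12 (SE, n = 3 libraries a kit, edgeR adjusted p = 0.00336), which is less than the median of all 5′ ends tested. miR-669l-5p, at 10390616, had 6.73, 7.96 and 5.65 RPMM against 11.3, 12.4 and 9.90 RPMM, a log2 fold change of 0.74 ± 0.15 (edgeR adjusted p = 0.00534). Both calls were kept with the sum of deposited counts as library size and lost with TMM and DESeq2 size factors: with TMM the log2 fold changes were 0.10 for miR-669c-5p (edgeR adjusted p = 0.509) and 0.22 for miR-669l-5p (edgeR adjusted p = 0.205), and in the DESeq2 test they were 0.16 and 0.27, neither past the threshold.

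miR-669o-5p, at 10435945, was at 5.12, 3.80 and 3.90 RPMM in TS-GAIIx and 3.89, 5.45 and 4.72 RPMM with v1.5, so that the kits overlapped and the test was not passed (log2 fold change 0.14 ± 0.18). The members of this arm type that rose most were miR-669b-5p and the copies miR-669m-1-5p and miR-669m-2-5p, which share their start. The study lists this start of Mir669m as 5 nt upstream of its miR-669m-5p. Each had 3.95, 3.14 and 2.27 RPMM in TS-GAIIx and 12.4, 13.0 and 13.2 RPMM with v1.5 (log2 fold change 2.07 ± 0.19, edgeR adjusted p = 0.000161). Of their counts 58.8% were divided, and these calls were lost with whole-number counts only. miR-669d-5p and its copy miR-669d-2-5p followed with log2 fold changes of 1.65 and 1.66, from 2.79, 1.36 and 1.49 RPMM in TS-GAIIx to 6.09, 5.69 and 5.72 RPMM of miR-669d-5p in v1.5-GAIIx. Their calls were lost with whole-number counts only as well.

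On the 3p arms of miR-669, 30 of 32 tested members rose, with a median log2 fold change of 2.53, and the DESeq2 test called 17. Most of the 32 are copies of the miR-669a-3p start or the start 1 nt downstream, which share divided reads. The 13 copies of miR-669a-3p summed to 38.6, 40.3 and 40.1 RPMM in TS-GAIIx and to 193, 203 and 189 RPMM with v1.5. Their fold changes on the log2 scale ran from 2.25 to 2.29, and that of miR-669a-12-3p was 2.29 ± 0.08 (edgeR adjusted p = 3.64e-06). The call of miR-669a-12-3p was lost with whole-number counts only. miR-669f-3p, at 10388912, rose from 1.02, 1.06 and 0.478 RPMM to 9.77, 8.86 and 8.07 RPMM, a log2 fold change of 3.45 ± 0.25 (edgeR adjusted p = 6.02e-05). The 3p arms of Mir669m-1 and Mir669m-2 had no count in TS-GAIIx and 0.397, 0.866 and 1.11 RPMM each in v1.5-GAIIx. They passed the test, but with all TS-GAIIx libraries at 0 their fitted fold changes depend on the prior count and are not given. miR-669l-3p had 0.0502, 0.146 and 0 RPMM in TS-GAIIx, all under the level of 3 counts, and 1.03, 1.17 and 0.481 RPMM in v1.5-GAIIx (log2 fold change 4.14 ± 0.85, edgeR adjusted p = 0.00528).

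All 23 tested members on 3p arms of miR-467 rose, and 26 of 28 on 5p arms, with medians of 1.55 and 1.30 on the log2 scale. Most of the 3p members are copies of the miR-467a-3p start or the start 1 nt downstream. Most of the 5p members are copies of the miR-467a-5p start or the start 1 nt upstream. Copies share divided reads, so these counts and medians weigh the same reads repeatedly. With TMM 11 of the 3p and 16 of the 5p members rose, and in the DESeq2 test 0 and 15. The 12 copies of miR-467a-5p, together the most abundant start in both kits, summed to 78.3, 99.9 and 95.1 RPMM in TS-GAIIx and to 223, 237 and 237 RPMM with v1.5. The name miR-467e-5p is used here for the start with more counts in all, at 10427359, whereas the study's miR-467e-5p is the start 1 nt upstream, at 10427358. At 10427359 it went from 4.67, 3.51 and 4.32 RPMM to 19.9, 20.4 and 21.3 RPMM (log2 fold change 2.30 ± 0.12, edgeR adjusted p = 1.23e-05). miR-467c-5p, at 10395568, went from 12.4, 11.0 and 12.001 RPMM to 34.95, 35.2 and 44.6 RPMM (1.69 ± 0.12 on the log2 scale, edgeR adjusted p = 5.38e-05). The 2 members that did not pass were both starts of miR-467d-5p. Its start at 10429267 had 21.7, 17.0 and 20.6 RPMM in TS-GAIIx and 19.3, 18.6 and 21.2 RPMM with v1.5, and the start 1 nt upstream, at 10429266, had 17.5, 18.04 and 18.1 against 14.7, 16.4 and 17.2 RPMM. These miRNAs belong to the same family, and with mapped reads as library size their levels under TruSeq and v1.5 differed by amounts between none that could be shown and about 5-fold (4.94 for miR-467e-5p).

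For miR-466, 34 of 39 tested 5p members and 28 of 33 tested 3p members rose, with medians of 1.85 on the log2 scale for both arms. Many of these members are copies of a few starts and share divided reads. With TMM 18 of the 5p and 25 of the 3p members rose, and in the DESeq2 test 12 and 14. The 15 copies of the commonest miR-466b-3p start summed to 20.7, 25.4 and 24.9 RPMM in TS-GAIIx and to 61.1, 58.8 and 46.5 RPMM with v1.5, a ratio of means of 2.34. miR-466d-3p, at 10433644, rose from 1.34, 0.945 and 1.65 RPMM to 16.2, 15.3 and 13.2 RPMM (log2 fold change 3.46 ± 0.21, edgeR adjusted p = 2.58e-05). All 10 tested members of miR-297 rose, of which the DESeq2 test called the 5 on 5p arms and 0 of the 5 on 3p arms. The largest change among them was that of miR-297c-5p, at 10430653, from 0.245, 0.167 and 0.123 RPMM, under the level of 3 counts, to 3.93, 4.25 and 3.74 RPMM (4.55 ± 0.30 on the log2 scale, edgeR adjusted p = 3.85e-05). The call of miR-297c-5p was lost with whole-number counts only.

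Since the 5p and 3p starts of miR-669a differed in their response, the balance between the arms of these hairpins differed between the kits in MIN6 as well. The 5p arm held 73.7%, 73.1% and 72.4% of the members' sum in TS-GAIIx, 59.4%, 60.1% and 62.1% in v1.5-GAIIx and 91.6% in NF-HiSeq. Over the 12 Mir669a hairpins the 5p share was 47.1%, 48.3% and 49.5% in TS-GAIIx, 14.4%, 14.8% and 13.9% in v1.5-GAIIx and 84.6% in NF-HiSeq. In MIN6 the more abundant strand of Mir669a was therefore 3p in v1.5-GAIIx and 5p in NF-HiSeq, and both strands had nearly equal levels in TS-GAIIx. In liver NEXTflex V2 went the other way, with a 5p share of 1.36% in NF-HiSeq-ML (0.181 RPMM of 5p and 13.1 of 3p). It was 45.4% in TS-HiSeq-ML, at low counts. Mir669o, whose commonest 3p start is a copy of miR-669a-3p with 82.2% of its counts on divided alignments and is therefore no independent case, had 69.7%, 59.97% and 66.8% in TS-GAIIx, 32.9%, 32.4% and 35.2% in v1.5-GAIIx and 97.9% in NF-HiSeq. In the Mir467a hairpins the kits were much closer and their libraries overlapped: the 5p share was 89.3% ± 1.00 (SD, n = 3) in TS-GAIIx, 88.4% ± 0.278 in v1.5-GAIIx and 90.0% in NF-HiSeq. In Mir466b the 5p share was higher in v1.5-GAIIx, at 21.8%, 23.4% and 24.6%, than in TS-GAIIx, at 15.99%, 14.3% and 14.3%, and was 34.01% in NF-HiSeq. With 3 libraries a kit an exact two-sided permutation test cannot give a p under 0.1, and no other test of these shares was run.

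**Figure D4:**
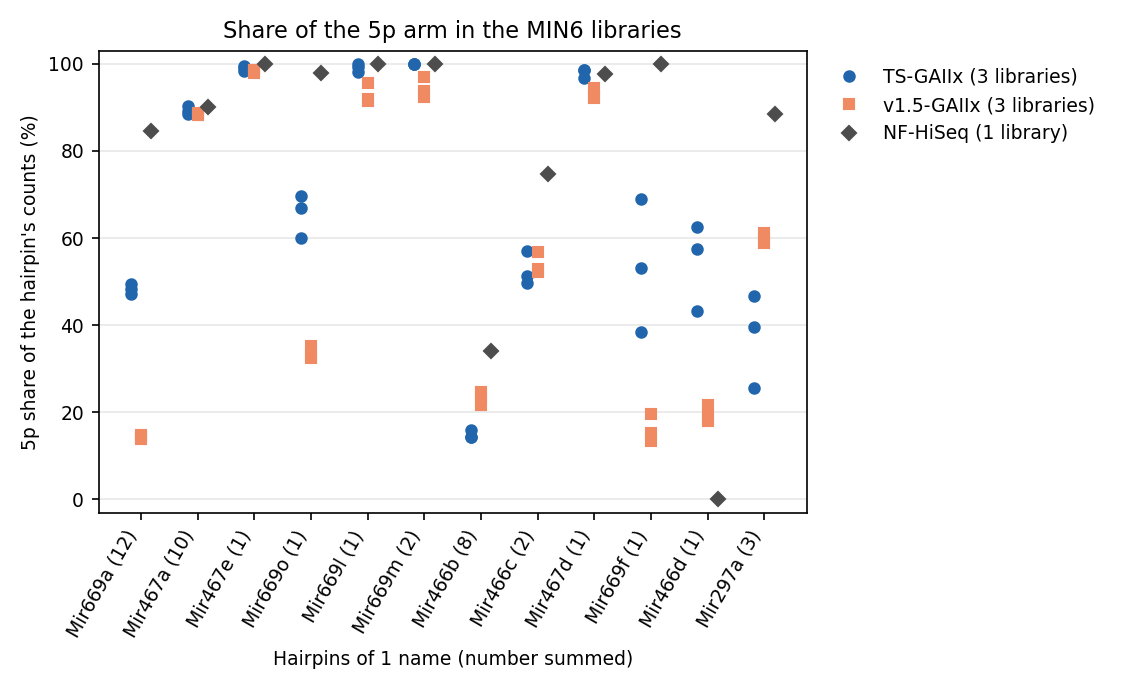
Share of the counts of a hairpin's members that came from its 5p arm, in percent, for the 12 hairpin names with the highest levels that have members on both arms, with hairpins of the same name summed; circles are 3 TS-GAIIx, squares 3 v1.5-GAIIx libraries and diamonds NF-HiSeq. Mir669a goes from 14.4% in v1.5-GAIIx over 48.3% in TS-GAIIx to 84.6% in NF-HiSeq, while Mir467a stays between 88.2% and 90.4%.

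NF-HiSeq, with random adapter ends, was set against the mean of TS-GAIIx after 1 RPMM was added to both. The largest ratios all belonged to 5p arms and most of them to miR-669. In 31 of the 271 members (11.4%) the level in NF-HiSeq was more than 10-fold that in TS-GAIIx, beside 1.84% of the 29898 5′ ends of the genome, and in 0 it was more than 10-fold lower, beside 1.94%. With 1 RPMM added, only the 5 members over 9 RPMM in TS-GAIIx could have been that much lower, so the 0 says little. All 31 were on 5p arms, 25 of them of miR-669 and 2 each of miR-466, of miR-467 and of hairpins with a Gm symbol. They have 12 different starts, and 15 of the 31 are copies of the miR-669a-5p start that share divided reads, so the 11.4% counts the same reads repeatedly. The median ratio was 2.41 over the members, 0.921 over all 5′ ends and 0.599 over the 351 5′ ends of the Dlk1-Dio3 cluster. Set against v1.5-GAIIx, 24 members were more than 10-fold higher in NF-HiSeq (8.86%, beside 1.64% of the genome) and 0 were more than 10-fold lower (2.92% of the genome), which only the 37 members over 9 RPMM in v1.5-GAIIx could have been. Both comparisons use the same NF-HiSeq library and are not independent. With 1 library of NF-HiSeq none of these ratios has a replicate check, and no p is given. With 0.1 RPMM added, 87 members were more than 10-fold higher in NF-HiSeq than in TS-GAIIx and 2 more than 10-fold lower. The 31 became 11 with 5 RPMM added and 12 with whole-number counts only. The share of the genome was not recounted under these settings.

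**Figure D5:**
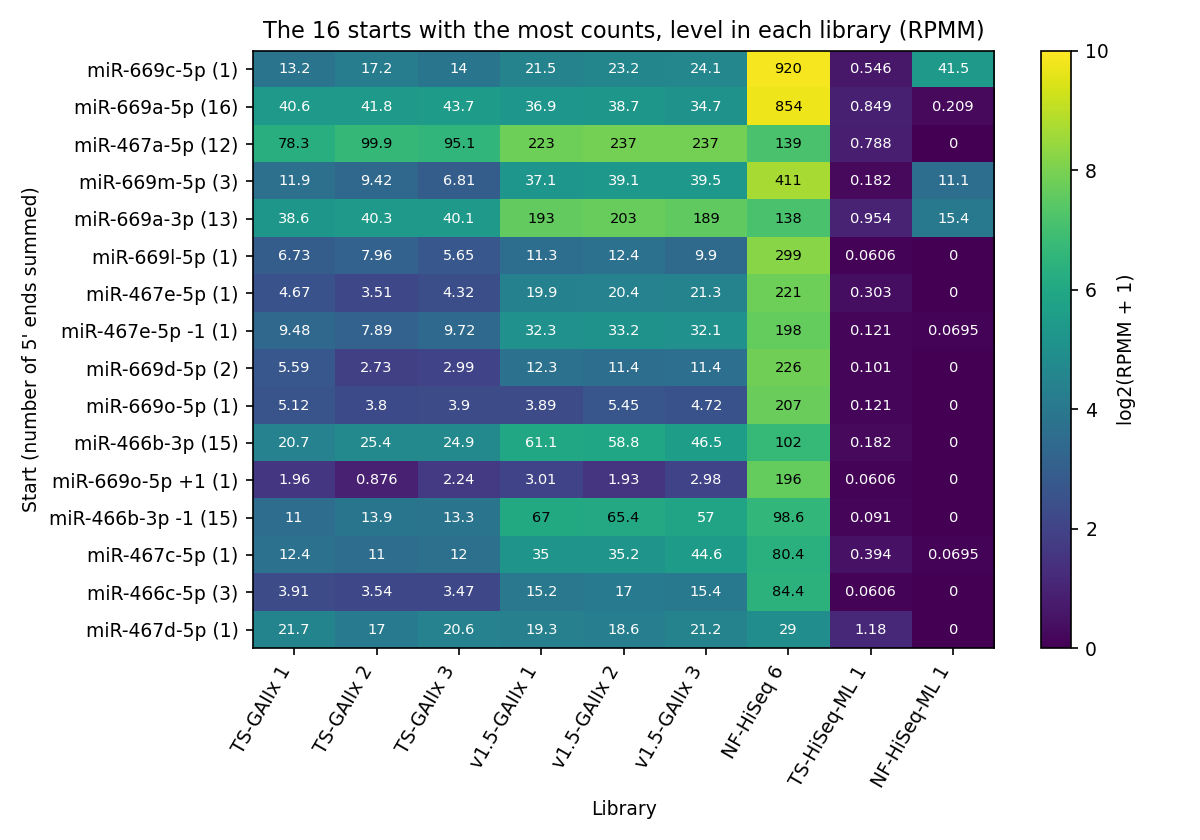
Level in RPMM of the 16 starts with the most counts in each of the 9 libraries, with the copies of a start summed (number of 5′ ends in brackets); colors give log2(RPMM + 1). The brightest cells of NF-HiSeq are miR-669c-5p (920 RPMM) and miR-669a-5p (854 RPMM), whereas miR-467a-5p and miR-669a-3p are brightest in v1.5-GAIIx.

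miR-669c-5p was at 920 RPMM in NF-HiSeq (exact Poisson 95% interval 908 to 932), beside the 13.2 to 17.2 RPMM of TS-GAIIx. Such intervals cover counting error only, since reads without molecular identifiers are not independent molecules. With 1 RPMM added its ratio was 58.3 to the mean of TS-GAIIx, 64.7, 50.5 and 61.6 to the libraries taken separately, and 38.5 to the mean of v1.5-GAIIx. The 16 copies of miR-669a-5p summed to 854 RPMM, 20.3 times the mean of TS-GAIIx. The 3 copies of the start that miR-669b-5p and miR-669m-5p share summed to 411 RPMM, 43.9 times TS-GAIIx and 10.6 times v1.5-GAIIx. miR-669l-5p was at 299 RPMM, a ratio of 38.6 with 1 RPMM added. miR-669d-5p and miR-669d-2-5p had 113 RPMM each and a ratio of 39.6. The highest ratio in the cluster was that of miR-669o-5p read from 1 nt downstream, at 10435946: it had 1.96, 0.876 and 2.24 RPMM in TS-GAIIx, 3.01, 1.93 and 2.98 RPMM with v1.5 and 196 RPMM in NF-HiSeq, a ratio of 73.0 with 1 RPMM added.

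Outside miR-669, miR-467e-5p read from 10427359 had 221 RPMM in NF-HiSeq and a ratio of 43.1 to TS-GAIIx, and the start 1 nt upstream, the study's miR-467e-5p, had 198 RPMM and a ratio of 19.8. miR-467c-5p had 80.4 RPMM and a ratio of 6.36, and its start 1 nt upstream had 33.8 RPMM and a ratio of 7.996. The remaining miR-467 starts described here had lower ratios. The 12 copies of miR-467a-5p summed to 139 RPMM, 1.53 times the mean of TS-GAIIx and 0.600 times that of v1.5-GAIIx. miR-467d-5p was at 29.0 RPMM, a ratio of 1.45 with 1 RPMM added, and its start 1 nt upstream at 13.3 RPMM, a ratio of 0.759. In TS-GAIIx miR-467d-5p (mean 19.7 RPMM) was therefore above miR-467e-5p (4.16 RPMM), and in NF-HiSeq it was below.

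Low values in NF-HiSeq fell mainly on 3p arms. In 35 members the count in NF-HiSeq was 0, and 28 of these were 3p. They included the 12 copies of miR-467a-3p read 1 nt downstream of its commonest start, which summed to 3.09 RPMM in TS-GAIIx and 9.01 in v1.5-GAIIx. miR-669f-3p, with a mean of 8.90 RPMM in v1.5-GAIIx, was at 0 in NF-HiSeq, where 3 counts would be 0.117 RPMM. With 3 counts as the limit, it was at least 75.9-fold lower there than in v1.5-GAIIx. Against TS-GAIIx (0.851 RPMM) it was at least 7.25-fold lower. Such limits take each count as a separate molecule. Over the genome and all read lengths NF-HiSeq had 251879 different alignments, and the shallower GAIIx libraries 551421 to 1276146. What part this has in the 0 values was not tested. miR-466d-5p and miR-466n-5p, which share a start, had 1.96, 1.90 and 1.45 RPMM each in TS-GAIIx and 0 in NF-HiSeq, at least 15.1-fold less. The others with the smallest ratios were miR-669a-3-3p (0.808 RPMM in TS-GAIIx) and miR-466h-3p (1.05, 0 and 1.12 RPMM), both at 0 in NF-HiSeq. Within Mir669f, the 5p arm had 100% of the counts of NF-HiSeq and 15.3%, 13.4% and 19.7% of those of v1.5-GAIIx.

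The 5′ end of a miRNA sets its seed, and several arms had more than 1 start. Of the counts of miR-467e-5p, the upstream start had 67.02%, 69.2% and 69.2% in TS-GAIIx, 61.9%, 61.9% and 60.1% in v1.5-GAIIx and 47.2% in NF-HiSeq. The Illumina kits did not overlap, and the start in the majority in these 6 libraries was in the minority in NF-HiSeq. In TS-HiSeq-ML it had 28.6%, of only 7 counts. For miR-467d-5p the upstream start had 44.6%, 51.5% and 46.8% in TS-GAIIx and 43.2%, 46.8% and 44.8% in v1.5-GAIIx, which overlapped, and 31.4% in NF-HiSeq. For miR-467c-5p it had 21.1%, 24.5% and 20.8%, 25.8%, 23.6% and 19.6%, and 29.6% in the same order of kits. The downstream start of miR-669o-5p had 27.7%, 18.8% and 36.5% in TS-GAIIx, 43.7%, 26.2% and 38.8% in v1.5-GAIIx and 48.6% in NF-HiSeq. miR-669c-5p had nearly a single start: it held at least 98.4% of the counts in each of the 9 libraries. The starts 1 nt upstream and downstream of it, at 10430945 and 10430947, were members only through NF-HiSeq, with 7.55 and 7.37 RPMM there and at most 0.168 RPMM in every other library.

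By GENCODE's hairpin sequences the starts have 39 different seeds, leaving out miR-466g-5p, whose start lies before its hairpin. The seed with the most counts over the 9 libraries was that of the miR-669a-5p start, which miR-669f-5p, miR-669l-5p, miR-669p-5p and the downstream start of miR-669o-5p share. It summed to 50.5, 51.2 and 52.6 RPMM in TS-GAIIx, 52.7, 54.3 and 49.3 RPMM with v1.5 and 1390 RPMM in NF-HiSeq. The Illumina kits thus overlapped in the level of this seed. The seed of the miR-467a-5p start, shared with miR-467b-5p, had the highest level in both TS-GAIIx and v1.5-GAIIx, with 78.3 to 99.9 and 223 to 237 RPMM, and had 139 RPMM in NF-HiSeq. miR-669c-5p had a seed that no other member of the cluster carried. Of the 66 starts, 40.9% began with A and 40.9% with U, where the 1674 different mature miRNAs of RefSeq (GRCm38.p6) begin with A in 25.6% and with U in 41.0%. The median GC content of their first 20 bases was 40%, beside 50% for RefSeq. The 66 starts include shifted 5′ ends of the same arm, whereas RefSeq lists annotated mature miRNAs, so the sets are not alike. Starts with A held 49.4% to 50.9% of the members' sum in TS-GAIIx, 48.4% to 49.7% in v1.5-GAIIx and 74.9% in NF-HiSeq.

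The length of the reads differed between miRNAs, and over all members it also differed between kits. Over all members, 22 nt was the commonest length in TS-GAIIx (42.9% to 44.1%) and in v1.5-GAIIx (43.3% to 44.4%), and 24 nt in NF-HiSeq (37.0%). Reads of 24 nt made up 11.7% to 13.2% in TS-GAIIx and 7.12% to 7.44% in v1.5-GAIIx. miR-669c-5p itself was mostly 24 nt long in all 7 MIN6 libraries, with 54.2% to 61.0% of its counts in TS-GAIIx, 66.4% to 69.2% in v1.5-GAIIx and 77.5% in NF-HiSeq. It held 19.8% of the members' sum in NF-HiSeq, and what part this has in the length over all members was not tested. miR-467e-5p and its upstream start were mostly 22 nt long in the same libraries, and miR-669o-5p 23 nt. Reads with an edit against the genome made up 7.41% to 9.69% of the members' counts in TS-GAIIx, 7.98% to 11.2% in v1.5-GAIIx and 8.28% in NF-HiSeq.

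The liver libraries show the kits on the same RNA, at low counts. In NF-HiSeq-ML 37 of the 271 members had any count and in TS-HiSeq-ML 142 had. NEXTflex V2 found miR-669c-5p at 41.5 RPMM (597 counts, interval 38.2 to 45.0) and TruSeq at 0.546 RPMM (9 counts, interval 0.250 to 1.04), a ratio of 27.5 with 1 RPMM added. As a single 5′ end it was the only member over 10-fold higher with NEXTflex V2 (0.369%, beside 2.91% of the 5′ ends of the genome). None was over 10-fold lower (2.80% of the genome), and none could have been, since the highest member in TS-HiSeq-ML had 1.18 RPMM. With 0.1 RPMM added, 4 members were over 10-fold higher and 2 over 10-fold lower, and the genome was not recounted. Summed over its 3 copies, the miR-669b-5p and miR-669m-5p start was also past 10-fold, at 11.1 RPMM with NEXTflex V2 and 0.182 RPMM with TruSeq (ratio 10.3 with 1 RPMM added). Next came the 13 copies of the miR-669a-3p start, at 15.4 and 0.954 RPMM. Single copies of these, such as miR-669a-12-3p with 1.20 and 0.0687 RPMM, rest on a few divided reads.

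Several other starts were lower with NEXTflex V2 in liver, in both miR-467 and miR-669. The miR-669a-5p start was at 0.849 RPMM with TruSeq and 0.209 RPMM with NEXTflex V2, and miR-669l-5p, miR-669d-5p and miR-669o-5p had at most 2 counts with TruSeq and 0 with NEXTflex V2. miR-467d-5p was at 1.18 RPMM with TruSeq (interval 0.717 to 1.84) and at 0 with NEXTflex V2, at least 5.67-fold lower. Its upstream start was at 1.09 RPMM and 0, at least 5.24-fold lower. miR-467c-5p had 6.5 counts with TruSeq and 1 with NEXTflex V2, its upstream start 6 and 0, and miR-467e-5p 5 and 0. In TS-HiSeq-ML 55.7% of the sum was miR-467, 32.9% miR-669 and 6.94% miR-466, whereas 98.1% of the sum in NF-HiSeq-ML was miR-669. All but 9 of the 597 counts of miR-669c-5p in NF-HiSeq-ML were of a single alignment of 22 nt, where 24 nt was the commonest length in MIN6. The 271 members had 138 different alignments in NF-HiSeq-ML, 345 in TS-HiSeq-ML and 4619 in NF-HiSeq. Over the genome and all read lengths these libraries had 179918, 2569547 and 251879 different alignments. What part this has in the 0 values and the limits drawn from them was not tested.

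NF-HiSeq and NF-HiSeq-ML set the cell line beside liver within NEXTflex V2. In 52 members (19.2%, beside 3.36% of the genome and 26.2% of the Dlk1-Dio3 cluster) the level was more than 10-fold higher in MIN6. Among the 52 are copies of the miR-669a-5p start and of the miR-467a-5p start, which share divided reads. The 19.2% therefore counts the same reads repeatedly. In 0 members the level was more than 10-fold lower (3.93% of the genome), which only 1 member, miR-669c-5p, was high enough in NF-HiSeq-ML to be. The largest ratio, with 1 RPMM added, was that of miR-669l-5p, at 299 RPMM in NF-HiSeq and 0 in NF-HiSeq-ML, followed by miR-467e-5p (221 RPMM and 0), miR-669o-5p (207 RPMM and 0), its downstream start (196 RPMM and 0) and the upstream start of miR-467e-5p (198 and 0.0695 RPMM). At 3 counts in NF-HiSeq-ML, miR-669l-5p would be at least 1435-fold lower in liver. miR-669c-5p had 920 and 41.5 RPMM, a ratio of 21.7. No member was lower in NF-HiSeq than in NF-HiSeq-ML. The 52 members became 173 with 0.1 RPMM added, 27 with 5 RPMM added and 17 with whole-number counts only. The share of the genome was not recounted under these settings.

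At the limit of the rule, the member just inside was the 3p start of Mir466o at 10394216 with a summed count of 20 (0, 0.730 and 0.498 RPMM in TS-GAIIx, 0.159, 0.251 and 0.385 in v1.5-GAIIx and 0 elsewhere), and the 5′ end just outside was on the 5p arm of Mir466p at 10427649 with 19.6.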

How the data were processed

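Small RNA-seq libraries of 7 MIN6 and 2 liver samples were used as deposited. Per the labels the authors trimmed adapters with cutadapt and aligned with Bowtie to mm9 (versions are not given in the sources used here). For NEXTflex reads, the bases added by the degenerate adapters were also trimmed. Each deposited line holds an alignment, its edits and an expected count, in which the authors divided reads with several alignments. Counts were summed by 5′ end (18 to 25 nt) and divided by the study's mapped reads, which the sums of the files exceed by 0.264% to 8.41%. Trimming, the division of reads and the authors' handling of mismatches could each change the members' values.

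v1.5-GAIIx was tested against TS-GAIIx with the quasi-likelihood test of edgeR 4.0.16 (p-values adjusted by Benjamini-Hochberg over the 16843 5′ ends with at least 20 counts over 9 and over these 6 libraries, adjusted p under 0.05) on expected counts rounded to whole numbers, with mapped reads as library sizes; SE is the log2 fold change over the square root of F. Ratios had 1 RPMM added and a limit of 10-fold. Intervals are exact Poisson intervals at 95%. Depth was 6.64 to 25.6 times 1000000 mapped reads. Replicates differed by more than sampling noise (chi-square per degree of freedom 4.56 to 10.4). The reading of coordinates was checked on mitochondrial alignments. The test was tested on simulated data. DESeq2 1.42.0, R 4.3.3 and Python 3.11.15 were also used.

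Members, lists, names and tests were chosen with earlier results of these data known. Named members are the 12 with the highest sum, up to 5 with the largest change in each direction of each comparison (for v1.5-GAIIx against TS-GAIIx, only those past the test), the starts of miR-669c-5p and those at the limit of 20; other starts stand for their family. The symbols of the 71 hairpins were not found among the RefSeq miRNA entries used here.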

Additional observations from a re-analysis of the deposited data

Results flagged for a closer look

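Of the members with more than 3 counts in a liver library, 4, all of miR-467, went in opposite directions in MIN6 and liver when NEXTflex V2 was set against TruSeq: in MIN6 the NF-HiSeq value lay above all 3 TS-GAIIx values, and in liver NF-HiSeq-ML lay below TS-HiSeq-ML. Without that minimum, 110 members did so. Some starts with several copies did so too when their copies were summed. That of miR-669a-5p was at 0.849 RPMM in TS-HiSeq-ML and 0.209 in NF-HiSeq-ML. In MIN6 it was at 854 RPMM in NF-HiSeq and 40.6 to 43.7 in TS-GAIIx. The difference between cell line and tissue was not tested, since each NEXTflex group is 1 library. With 1 RPMM added, the liver ratios were 0.767 for miR-467e-5p, 0.767 for miR-467c-5p, 0.733 for its upstream start and 0.458 for miR-467d-5p, and the MIN6 ratios of the same members were 43.1, 6.36, 7.996 and 1.45. They rest on 5, 6.5, 6 and 19.5 counts in TS-HiSeq-ML and on at most 1 count in NF-HiSeq-ML.

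Reads of other lengths in the window were not part of the members. Reads over 25 nt on the plus strand had 64.3 RPMM in NF-HiSeq, a mean of 2.64 RPMM in v1.5-GAIIx and 0.656 RPMM in TS-GAIIx, and no count in liver. Reads under 18 nt had means of 10.1 (TS-GAIIx) and 5.62 RPMM (v1.5-GAIIx), 6.93 RPMM in NF-HiSeq and 0.967 RPMM in TS-HiSeq-ML. On the minus strand, reads of 18 to 25 nt stayed under 1 count in every library.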

How the results depend on the processing

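Of 96 recomputed values of the 6 main results, 70 kept within the spread or within 1.5 times the value in the text. For v1.5-GAIIx against TS-GAIIx, 173 members were called. Leaving out a library gave 154 to 165, all higher (genome 40.7% to 45.0%). The DESeq2 test gave 76, of which 74 higher in v1.5-GAIIx (36.1%, genome 28.1%). A minimum of 100 counts gave 80 of 100 tested, all higher (genome 55.6%). Whole-number counts only gave 13 of 62 tested, all higher (20.97%, genome 24.5%). Summing the starts of an arm gave 107 of 128 arms, all higher (83.6%, genome 43.2%). TMM gave 141 and DESeq2 size factors in edgeR 150, with 17 of each higher in TS-GAIIx; higher calls were then 56.4% and 57.8% of all calls in the genome instead of 68.6%, and 87.9% and 88.7% of the members' calls instead of 100%. Without a minimum 12789 of 470793 5′ ends of the genome and 145 of 263 members were called. Over 10-fold between NF-HiSeq and TS-GAIIx were 89 members with 0.1 RPMM added (87 higher and 2 lower in NF-HiSeq), 11 with 5 RPMM and 12 with whole-number counts only (31 in the text; 31 without each TS-GAIIx library in turn). In liver these were 6 (4 higher and 2 lower with NEXTflex V2) and 0 with 0.1 and 5 RPMM (1 in the text), and between NF-HiSeq and NF-HiSeq-ML 173, 27 and 17 (52 in the text). For these ratios the share of the genome was not recounted under the alternatives.

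The sums in RPMM were, with whole-number counts only, 124 (TS-GAIIx), 368 (v1.5-GAIIx), 2608 (NF-HiSeq), 4.31 (TS-HiSeq-ML) and 41.6 (NF-HiSeq-ML); without edited reads 346, 916 and 4264 in the first 3; scaled by the sum of deposited counts 363 and 968 in the first 2; with every 5′ end of the window 1036 in v1.5-GAIIx; and with reads of every length 4714 in NF-HiSeq. The divided share of NF-HiSeq was 44.3% with reads of every length and 42.9% without edited reads. Leaving out libraries was added after the data had been seen for these 2 results and gave sums of 374 to 384 RPMM in TS-GAIIx and 997 to 1017 RPMM in v1.5-GAIIx, and divided shares of 65.2% to 70.02% and 57.9% to 67.5%. For miR-467d-5p, whose log2 fold change was -0.00, the sign changed in 5 alternatives: 0.0033 with the replicate block, 0.066 without TS-GAIIx replicate 1, 0.030 without TS-GAIIx replicate 3, 0.0092 without v1.5-GAIIx replicate 1 and 0.037 without v1.5-GAIIx replicate 2 (the range over left-out libraries was -0.10 to 0.066). miR-669o-5p turned to -0.39 with TMM, -0.33 with DESeq2 size factors and -0.33 in the DESeq2 test. None of these values passed the test, and the causes were not tested. Calls of miR-669c-5p and miR-669l-5p were lost with TMM, DESeq2 size factors and the DESeq2 test. Those of miR-669a-3-3p, miR-466d-5p and miR-466n-5p were lost in the DESeq2 test, and those of miR-669b-5p, both miR-669m-5p copies, both miR-669d-5p copies, miR-669a-12-3p, miR-297c-5p, miR-466d-5p and miR-466n-5p with whole-number counts only, where the log2 fold changes of miR-669b-5p (1.93), miR-669d-5p (1.43) and miR-297c-5p (4.46) stayed close to those in the text and the median of the members tested was 2.67. Both starts of miR-467d-5p passed with the first 3 of these settings, lower in v1.5-GAIIx, and the downstream start of miR-669o-5p passed with the replicate block.

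The replicate numbers did not pair the libraries: same-numbered libraries had correlations of deviations from the group mean of 0.079, -0.18 and 0.042. With the replicate number as a block 175 members were called, all higher in v1.5-GAIIx, and 172 of these were among the 173. Low counts limit liver, where most members are at or under 3 counts although both libraries had more mapped reads than every GAIIx library.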
